A study of Mus musculus with 4 samples.

Results

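Genes of myoblast fusion and of muscle membrane repair were examined in cultured primary myoblasts of WT and Tet2 KO mice. The 10 genes were taken by their symbols from the 24445 genes of the deposited table: Tmem8c, Gm7325, Dysf, Myof, Cav3, Bin1, Jam2, Jam3, Ano5 and Trim72. All 10 were found, and all 10 had a mean of at least 1 FPKM (fragments per kilobase of transcript, scaled to the number of mapped fragments) in the 2 groups, as did 11692 genes in all. Each group had 2 RNA-seq libraries of C57BL/6 background. Satellite cells, the stem cells of muscle, were sorted from hindlimb muscle as CD34+ and Integrin a7+ cells without CD45, CD11b, CD31 and Sca1, and were grown on collagen in a proliferating medium, which the labels also call T cell medium, for at least 3 days until they were MyoD+ myoblasts. The Tet2 KO mice lacked exon 3 of Tet2 in every cell, so the deletion was not limited to muscle. The labels give no age, and the study used young adult male mice unless it stated otherwise.

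Each gene had 1 FPKM value per group and none per library, called the pooled value here. The spread between libraries was therefore unknown, no SD stands beside any value, and no difference below was tested across animals. The sequencing depth was unknown too. Where a pair of levels is given without group names, Tet2 KO comes first. A gene was called lower or higher when its log2((Tet2 KO FPKM + 1) / (WT FPKM + 1)), named the log2 difference below, reached a 1.5-fold change. This rule called 2.89% of the 11692 genes lower and 3.72% higher, and their median log2 difference was -0.0044. Tet2 itself had 5.79 FPKM in Tet2 KO against 6.64 FPKM in WT. Since the gene was counted as a whole, reads of exon 3 cannot be singled out, and the value was no check of the labels.

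Skeletal muscle fibers form when single myoblasts leave the cell cycle, adhere to each other and merge their membranes. The merger needs myomaker, a membrane protein with several passes through the membrane, and myomixer, a short membrane protein also known as myomerger or minion. The finished fiber is under mechanical load, and tears of its membrane are closed by vesicles and patches in a calcium-dependent way. Dysferlin, MG53 and caveolin 3 are known for that role, and loss of dysferlin or of anoctamin 5 causes limb girdle muscular dystrophy in humans.

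The fusion proteins appear in the table under their older symbols, Tmem8c for myomaker and Gm7325 for myomixer. The RT-qPCR primers that the study designed for these genes and for Dysf are shown because they tie the symbols to a place in the genome. Each of them was searched in the protein-coding transcripts of GENCODE vM1, the gene annotation of build mm9. There it matched 1 gene only, the intended one. Noncoding transcripts and pseudogenes were not searched.
Tmem8c forward: cctgctgtctctcccaag
Tmem8c reverse: agaaccagtgggtccctaa
Gm7325 forward: ggaccactcccagaggaagga
Gm7325 reverse: ggaccgacgcctggactaac
Dysf forward: gggggagaagatgagtgaca
Dysf reverse: ttcttggcaacagcacagac
The Tmem8c primers lie on the minus strand gene at chr2:26917635-26917652 and chr2:26917519-26917537 of mm9, both in exon 5 of 5 beyond the coding part, and span 134 bases of transcript. The Gm7325 primers lie at chr17:45738388-45738408 and chr17:45738296-45738315, in exon 2 of 2, and span 113 bases that run from the coding part past its end. The Dysf primers lie in coding exon 49 and coding exon 50 of 55, at chr6:84144722-84144741 and chr6:84145293-84145312. They span 174 bases of transcript. All 3 pairs fell inside the loci that the deposited table gives for these genes.

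Of the 10 genes, 5 were called lower in Tet2 KO myoblasts and 0 were called higher, against 2.89% and 3.72% of all genes. The 5 were both fusion proteins, Tmem8c and Gm7325, and Dysf, Cav3 and Trim72 of the muscle membrane. Their median log2 difference was -1.25, taken only over genes that had passed the 1.5-fold limit and therefore low by selection. The other 5, Myof, Bin1, Jam2, Jam3 and Ano5, stayed within the 1.5-fold range. At 2-fold, 4 of the 10 were called lower against 1.21% of all genes, and Gm7325 was the gene that left. The median over all 10 genes was -0.68. The study had already reported from its RNA-seq that genes of muscle differentiation and of fusion were lower in Tet2 KO myoblasts. These counts are not independent of that report.

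**Figure D1:**
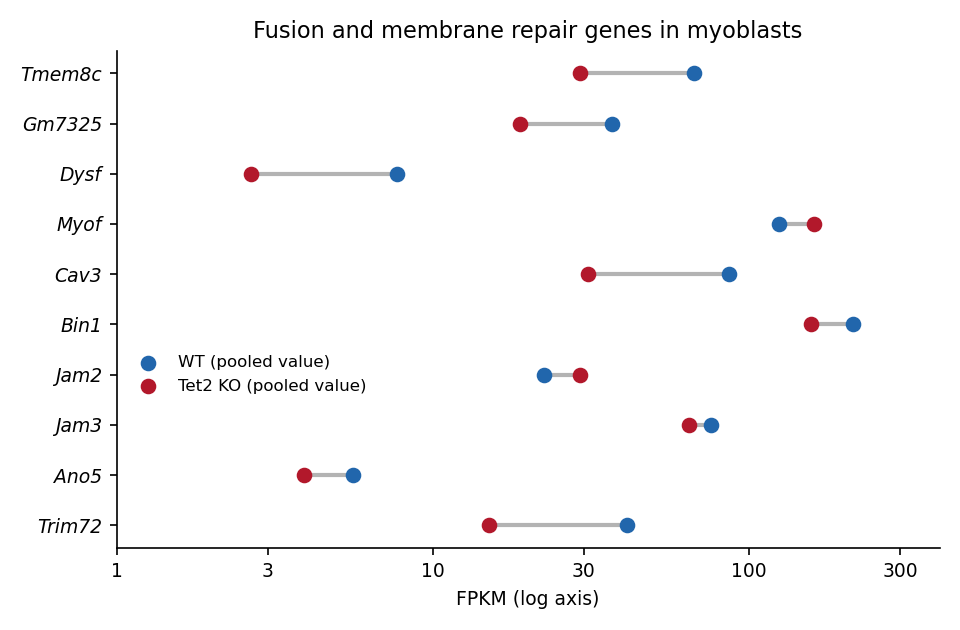
FPKM values of the 10 genes on a log axis, with 1 pooled value for WT (blue) and 1 for Tet2 KO (red), joined by a line. Tmem8c, Gm7325, Dysf, Cav3 and Trim72 have long lines with the Tet2 KO value on the left, and Myof and Jam2 have short lines with the Tet2 KO value on the right.

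The fusion proteins were compared first. In mm9, Tmem8c spans bases 26917156 to 26927681 of chromosome 2 on the minus strand, and its longest annotated transcript has 5 exons and 1382 bases. Myomaker, its product, is needed on both partners of a fusion. Tmem8c had 29.1 FPKM in Tet2 KO against 66.8 FPKM in WT as the authors' pooled values, 2.30-fold lower in Tet2 KO. Its log2 difference was -1.17, and 106 of the 11692 genes (0.907%) had a value as low or lower.

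Gm7325 spans bases 45737916 to 45739051 of chromosome 17, also on the minus strand, with 2 exons and 852 bases in its longest transcript. Myomixer acts after myomaker, at the step in which the fusion pore opens. Gm7325 had 18.9 FPKM in Tet2 KO against 36.9 FPKM in WT, 1.95-fold lower in Tet2 KO. Its log2 difference of -0.93 was the smallest of the 5 called genes. The transcripts of the fusion partners were thus lower by similar factors. The FPKM ratio of Tmem8c to Gm7325 was 1.54 in Tet2 KO and 1.81 in WT. The family relatives of myomaker, Tmem8 and Tmem8b, were below 1 FPKM in both groups and were not compared.

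The ferlins are large membrane proteins with C2 domains that bind calcium and lipid. Dysf, the gene of dysferlin, spans bases 83958592 to 84161053 of chromosome 6 on the plus strand, with 55 exons in its longest transcript. It had 2.65 FPKM in Tet2 KO against 7.67 FPKM in WT, 2.89-fold lower, and a log2 difference of -1.25. This was the largest ratio of FPKM values among the 10 genes, and in Tet2 KO Dysf had the lowest level of them. Without the pseudocount its log2 ratio was -1.53, since the pseudocount weighs most on low values.

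Myof, the gene of myoferlin, which acts in fusion of myoblasts and is also found outside muscle, spans bases 37973526 to 38118067 of chromosome 19 on the minus strand. It went the other way, with 160.5 FPKM in Tet2 KO against 124 FPKM in WT. Its log2 difference was 0.37 and was not called, and 5.996% of all genes had a value as high or higher. Both ferlins are large genes with like numbers of exons, 55 for Dysf and 54 for Myof. The ratio of Dysf to Myof within a group does not depend on the scaling between groups. It was 0.0165 in Tet2 KO and 0.0618 in WT, so that in Tet2 KO it reached 26.7% of its WT value. The remaining ferlins of the table, Otof, Fer1l4 and Fer1l5, were below 1 FPKM in both groups.

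Cav3, at bases 112409499 to 112422866 of chromosome 6, encodes caveolin 3, the muscle form of the protein that shapes caveolae, small pits of the cell membrane. It had 31.0 FPKM in Tet2 KO against 86.3 FPKM in WT, 2.78-fold lower in Tet2 KO. Its log2 difference of -1.45 was the lowest of the 10 genes, and 40 of all genes (0.342%) were as low or lower. The widely expressed caveolins Cav1 and Cav2 had log2 differences of 0.02 and -0.03. The FPKM ratio of Cav3 to Cav1 was 1.42 in WT and 0.505 in Tet2 KO, so Cav3 was the more abundant of both in WT and the less abundant in Tet2 KO.

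Cavins coat caveolae, and the muscle cavin, Murc (cavin 4), was called lower as well. Murc had 16.9 FPKM in Tet2 KO against 40.7 FPKM in WT, with a log2 difference of -1.22. Sdpr (cavin 2) had 11.8 and 27.8 FPKM, with -1.17, and was called lower too. Ptrf (cavin 1) at -0.12 and Prkcdbp (cavin 3) at 0.01 were not called. Of the 7 caveolin and cavin genes, 3 were therefore called lower and 0 higher, against 2.89% and 3.72% of all genes. The list median was -0.12. The ratio of Cav3 to Murc was 1.83 in Tet2 KO and 2.12 in WT.

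Trim72, at bases 135147892 to 135154907 of chromosome 7 on the plus strand, encodes MG53, a muscle protein that brings vesicles to a membrane tear. It had 15.0 FPKM in Tet2 KO against 40.9 FPKM in WT, 2.72-fold lower, with a log2 difference of -1.39. Of all genes, 50 (0.428%) were as low or lower. Trim72 and Cav3 differed between the groups by like factors. The FPKM ratio of Trim72 to Cav3 was 0.485 in Tet2 KO and 0.474 in WT.

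Bin1, at bases 32518711 to 32595394 of chromosome 18 on the plus strand, encodes a protein that bends membranes and shapes the T-tubules of muscle. It was the most abundant of the 10 genes in WT, with 212 FPKM, and had 157 FPKM in Tet2 KO. Its log2 difference of -0.43 was not called. In absolute terms Bin1 was lower by as many FPKM units as Cav3, since the difference of Tet2 KO minus WT was -55.0 FPKM for Bin1 and -55.3 FPKM for Cav3. The table gives the same locus to A830052D11Rik, a gene with 1.06 and 1.24 FPKM, and without strand the reads of overlapping genes cannot be told apart.

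Ano5, at bases 58766399 to 58854077 of chromosome 7 on the plus strand, encodes anoctamin 5, a membrane protein of the family of lipid scramblases and chloride channels. It had 3.91 FPKM in Tet2 KO against 5.60 FPKM in WT, and its log2 difference of -0.43 was not called. Ano5 and Dysf had the lowest levels of the 10 genes in both groups. The other anoctamins with at least 1 FPKM, Ano1, Ano6, Ano8 and Ano10, ranged from -0.40 for Ano1 to 0.02 for Ano8, and none was called. That count depends on the pseudocount. Ano1 had 1.12 FPKM in Tet2 KO against 1.79 FPKM in WT, 1.61-fold lower, and with a pseudocount of 0.1 or with none 1 anoctamin gene was called lower.

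The junctional adhesion molecules Jam2 and Jam3 are cell surface proteins of the immunoglobulin superfamily that bind each other across cell contacts. Jam2, at bases 84774368 to 84826620 of chromosome 16, had 29.2 FPKM in Tet2 KO against 22.5 FPKM in WT, with a log2 difference of 0.36. Jam3, at bases 26904969 to 26963006 of chromosome 9, had 64.6 and 75.5 FPKM, with -0.22. Neither was called. Jam3 was the more abundant in both groups, and the ratio of Jam2 to Jam3 was 0.452 in Tet2 KO and 0.298 in WT.

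**Figure D2:**
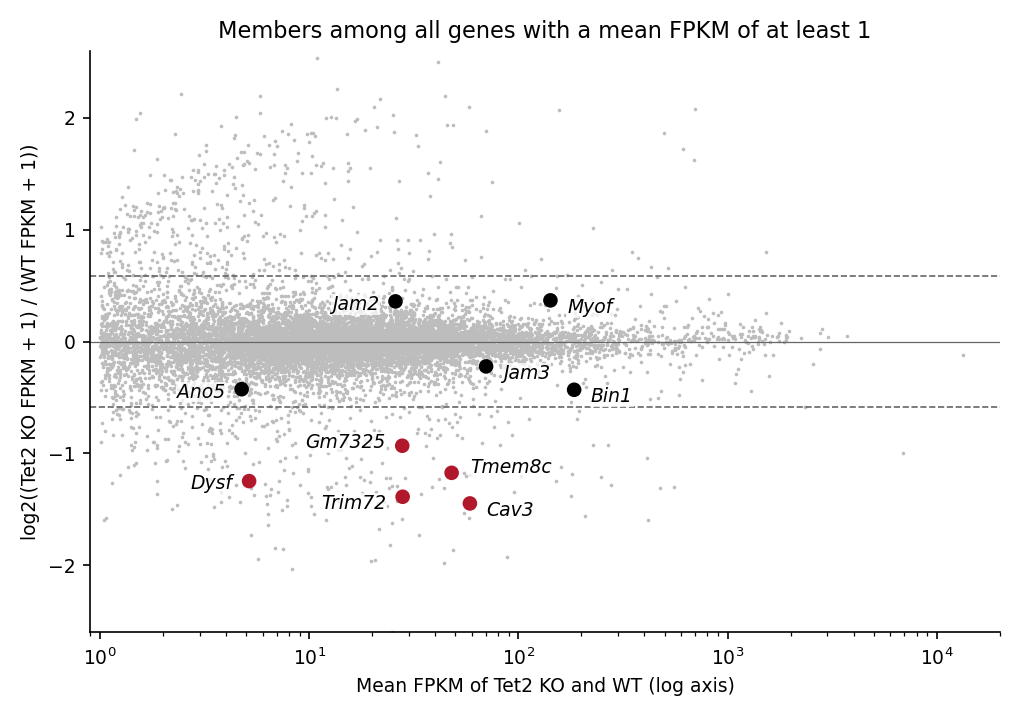
Log2 difference of each gene against its mean FPKM in both groups (log axis), for the genes whose mean was 1 FPKM or more; grey points are all genes, red points the 5 members called lower, black points the other members, and dashed lines the 1.5-fold limits. The red points lie between -0.93 and -1.45, and 13 genes lie outside the plotted range of 2.6 in either direction.

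By level, the order of the 10 genes in WT was Bin1, Myof, Cav3, Jam3, Tmem8c, Trim72, Gm7325, Jam2, Dysf and Ano5. In Tet2 KO it was Myof, Bin1, Jam3, Cav3, Jam2, Tmem8c, Gm7325, Trim72, Ano5 and Dysf. Without values per library, it cannot be said which neighbours in these orders differ beyond their spread. In Tet2 KO, Jam2 and Tmem8c were next to each other with 29.2 and 29.1 FPKM. Among all genes with at least 1 FPKM, Cav3 stood at rank 1105 in WT and at rank 3103 in Tet2 KO, and Tmem8c at rank 1413 and rank 3293. Myof moved from rank 733 to rank 568.

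Other genes of fusion and membrane repair were counted from lists of 127 further genes. Of these, 125 were in the table and 98 had a mean of at least 1 FPKM. Called lower were 9 (9.18%) and called higher were 5 (5.10%), and the median log2 difference was -0.06. Of all genes, 2.89% were called lower and 3.72% higher, and the counts by list below are to be read beside these shares. The 84 remaining genes stayed within the 1.5-fold range.

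Adhesion and signalling genes of fusion made up 22 of the 98 genes. Of these, 3 were called lower. Ncam1, a neural cell adhesion molecule also carried by myoblasts, had 50.2 FPKM in Tet2 KO against 79.2 FPKM in WT, with a log2 difference of -0.65. Erbb3, a receptor of neuregulins, had 11.2 and 24.3 FPKM, with -1.05. Adgrg1, the adhesion receptor GPR56, had 0.988 and 2.77 FPKM, with -0.92. Called higher were Fst, the gene of the myostatin antagonist follistatin, with 48.0 and 27.0 FPKM, and Cd36, a fatty acid receptor that macrophages carry too, with 7.35 and 2.16 FPKM. The cadherin gene Cdh15, the integrin gene Itgb1 and the tetraspanin gene Cd9 had log2 differences of -0.21, -0.07 and 0.00.

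Actin remodelling genes, which act inside the cell at the site of fusion, were mostly within the range. Of 24 genes, 0 were called lower and 2 were called higher. The GTPase genes Rac1 and Cdc42 had log2 differences of 0.03 and -0.16, and Dock1, the gene of an activator of Rac, had 0.13. The called genes were Rnd3, the gene of a small GTPase, with 32.7 FPKM in Tet2 KO against 21.1 FPKM in WT, and Was, with 3.00 and 0.879 FPKM. Was encodes the form of WASP that blood cells use. Its relative Wasl, which other cells use, had 0.01.

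Genes of membrane curvature and T-tubules gave 2 called lower and 1 called higher among 12 genes beside Bin1. Pacsin3, a muscle member of a family that bends membranes, had 15.7 FPKM in Tet2 KO against 31.3 FPKM in WT, with a log2 difference of -0.95. Jph1, which ties T-tubules to the sarcoplasmic reticulum, had 3.46 and 5.75 FPKM, with -0.60. Bin2, a relative of Bin1 found in blood cells, had 2.18 and 0.677 FPKM, with 0.92. The widely expressed Pacsin2 had -0.20, and Dnm2, the gene of dynamin 2, had 0.06.

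Membrane repair genes beside the members were counted too. Of 15 annexin, S100, AHNAK and calpain genes, 2 were called lower and 0 higher, against 2.89% and 3.72% of all genes. Capn3, the muscle calpain, had 1.84 FPKM in Tet2 KO against 6.46 FPKM in WT, with a log2 difference of -1.39. Capns1, the small subunit of the common calpains, had 85.6 and 139 FPKM, with -0.69. The abundant annexin genes Anxa1, Anxa2 and Anxa6 had log2 differences of 0.16, -0.04 and -0.12. Of 14 genes of vesicles and the ESCRT machinery beside Trim72, 0 were called in either direction, and they ranged from -0.23 for Mcoln1 to 0.17 for Pdcd6ip.

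**Figure D3:**
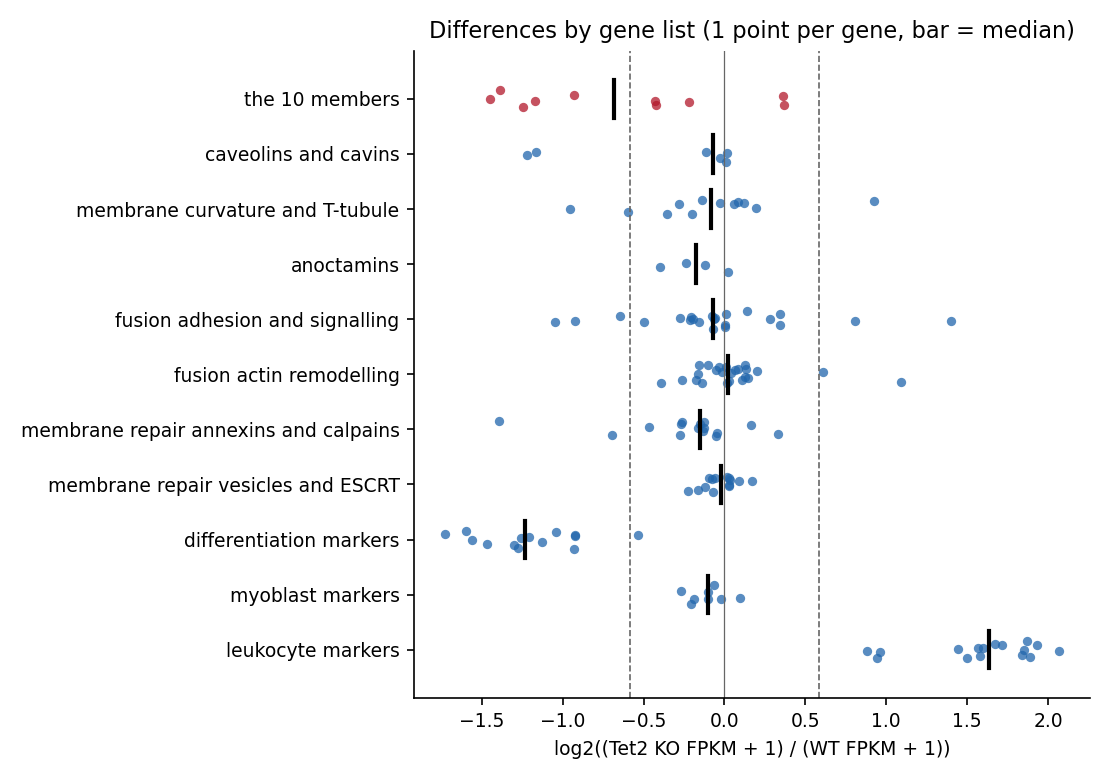
Log2 difference of each gene whose mean was 1 FPKM or more in the lists drawn, with 1 point per gene. Black bars are list medians, dashed lines are the 1.5-fold limits, and members are left out of all rows but the top. Lists without a row are not shown, among them junctional adhesion molecules, endothelial markers, and fibroblast and progenitor markers. The differentiation markers lie on the left with a median of -1.23, the leukocyte markers on the right with 1.64, and most fusion and repair lists around 0.

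Markers of the cells were read beside these differences. The myoblast markers Myod1, Myf5, Des, Pax7, Cdh15, Itga7 and Chrna1 were all present, and 0 of these 7 were called, with log2 differences from -0.27 for Des to -0.02 for Pax7. Myod1, the gene of the transcription factor MyoD, had 313 FPKM in Tet2 KO against 336 FPKM in WT. Relative to Myod1, Tmem8c reached 46.6% of its WT value in Tet2 KO, Gm7325 54.8%, Dysf 37.0%, Cav3 38.5% and Trim72 39.3%. Of 14 markers of differentiation, 13 were called lower, with a median of -1.23, and Tnnt1 at -0.53 was the gene not called. Their summed level was 1848 and 4183 FPKM. Myog, which encodes myogenin, was among them with 268 and 554 FPKM. The ratio of Tmem8c to Myog was 0.108 in Tet2 KO and 0.121 in WT. In bulk RNA, fewer differentiating cells and less of these transcripts per cell cannot be told apart.

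Leukocyte markers moved with the groups. All 16 of 20 with a mean of at least 1 FPKM were called higher, and their median log2 difference was 1.64, although the sort had removed CD45+ and CD11b+ cells. The summed level of the 20 markers was 2225 FPKM in Tet2 KO against 627 FPKM in WT, of which S100a8 and S100a9 were the larger part. Ptprc, the gene of CD45, had 5.67 and 1.36 FPKM. The T cell marker Cd3e was listed at 0 in Tet2 KO, and the B cell marker Ms4a1 was listed at 0 in WT. Of 8 endothelial markers, 7 were below 1 FPKM on average, and their sum was 4.40 and 5.13 FPKM. Of 10 fibroblast and progenitor markers, 3 were called higher (Col1a2, Dcn and Mfap5), 0 were called lower, and their sum was 498 and 457 FPKM. Ly6a, the gene of the Sca1 antigen that the sort selected against, had 288 and 278 FPKM. The part of these cells in the differences of the 10 genes was not tested.

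The genomic neighbours of the 10 genes were examined as well. The nearest gene on each side with at least 1 FPKM was taken, 20 genes in all. Genes below 1 FPKM were passed over, so some neighbours lie far off. Prmt3 lies 1652764 bases from Ano5, and Exoc6b 407427 bases from Dysf. Of the 20 genes, 17 stayed within the 1.5-fold range, from -0.37 to 0.57. Adamtsl2, which lies 7220 bases from Tmem8c, was called lower, at 0.813 FPKM in Tet2 KO against 2.84 FPKM in WT. The neighbours of Trim72 were both called higher, the inflammasome gene Pycard with 7.79 and 3.19 FPKM and the CD11b gene Itgam with 10.1 and 2.09 FPKM. Itgam, 51247 bases from Trim72, is also 1 of the leukocyte markers above. The neighbours of Cav3, Lmcd1 and Rad18, had -0.01 and 0.28. Those of Gm7325, Slc29a1 and Tmem63b, had -0.16 and -0.17.

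Promoters were read because MyoD and myogenin bind the E box, CANNTG, and 5 of the 10 genes were lower together. From the RefSeq promoter table, 6 promoters of Dysf, Myof, Cav3, Ano5 and Trim72 were read. None was read for Tmem8c, Gm7325, Jam2 and Jam3. Bin1, which was not called, was left out when the promoters were selected, so its absence says nothing about its promoter. All of these genes, called or not, are missing from the promoter counts. The counts therefore do not compare all called with all uncalled members. The 250 bases before each start were searched. CANNTG reads the same on both strands, and overlapping matches were counted. The sequences of Cav3 and Trim72, which were lower and hold the motif, are shown beside those of Dysf, which was lower without it, and Myof, which was not lower. E boxes are in capitals, and each line ends at the base before the start. The letters are those of RefSeq build GRCm38.p6. Each promoter matched the mm9 sequence of its own chromosome, on the strand of the gene, at 1 place. The other chromosomes and the other strand were not searched.
Cav3: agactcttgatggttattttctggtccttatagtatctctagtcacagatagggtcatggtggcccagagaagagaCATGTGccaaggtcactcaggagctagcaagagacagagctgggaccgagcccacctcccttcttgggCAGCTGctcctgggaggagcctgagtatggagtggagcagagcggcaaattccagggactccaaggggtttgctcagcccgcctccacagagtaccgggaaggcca
Trim72: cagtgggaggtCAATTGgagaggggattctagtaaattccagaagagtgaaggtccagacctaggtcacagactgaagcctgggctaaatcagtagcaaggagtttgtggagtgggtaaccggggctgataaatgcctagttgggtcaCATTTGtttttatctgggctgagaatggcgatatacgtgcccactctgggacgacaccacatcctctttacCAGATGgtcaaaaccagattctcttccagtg
Dysf: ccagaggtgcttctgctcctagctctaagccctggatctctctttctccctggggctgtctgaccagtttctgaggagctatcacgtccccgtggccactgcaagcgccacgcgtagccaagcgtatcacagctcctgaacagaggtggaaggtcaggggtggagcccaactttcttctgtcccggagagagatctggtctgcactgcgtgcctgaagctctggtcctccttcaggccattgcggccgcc
Myof: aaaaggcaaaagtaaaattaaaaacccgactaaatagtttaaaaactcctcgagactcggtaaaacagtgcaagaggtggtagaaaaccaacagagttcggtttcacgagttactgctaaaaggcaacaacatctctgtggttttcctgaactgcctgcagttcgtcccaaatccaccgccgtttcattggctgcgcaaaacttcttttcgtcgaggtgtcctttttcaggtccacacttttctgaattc
In mm9 these are chr6:112409249-112409498 for Cav3, chr7:135147642-135147891 for Trim72, chr6:83958342-83958591 for Dysf, all on the plus strand, and chr19:38118068-38118317 on the minus strand for Myof. Each ends at the 5′ end of the locus that the deposited table gives for the gene.

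The Cav3 promoter held 2 E boxes, CATGTG that begins 174 bases before the start and CAGCTG that begins 106 bases before it. CAGCTG is a form that MyoD is known to bind, and 4271 of the 32851 promoters of the table held it. So did 1394 of the 11633 promoters of genes with at least 1 FPKM. These genes were matched to promoters by identical symbol, so genes renamed since are missing from this set. The Trim72 promoter held 3 E boxes, of which CAGATG began 31 bases before the start. The Ano5 promoter held 1, CACCTG. Both promoters of Dysf and that of Myof held 0. Of all promoters, 66.2% held at least 1 CANNTG, and of the promoters of genes with at least 1 FPKM 57.1% did, so a match is common. Of the 3 called genes whose promoters were read, Cav3 and Trim72 held the motif and Dysf did not. Of the genes read but not called, Ano5 held it and Myof did not. The consensus of MEF2, searched on both strands, was found in 0 of the 6 promoters and in 1.69% of all promoters. Among promoters of genes with at least 1 FPKM it was found in 1.15%.

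CpG sites, the substrate of DNA methylation, were counted in the same 250 bases. Cav3 and Trim72 held 4 each. Dysf held 10 and 11 in its promoters, Myof 11 and Ano5 13. The median was 16 over the 11633 promoters of genes with at least 1 FPKM, matched by symbol as above, and 6 over all promoters. DNA methylation was not analysed here.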

How the data were processed

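RNA was sequenced from primary myoblasts of WT and Tet2 KO mice, with 2 libraries per group, from TruSeq RNA Library Preparation Kit v2. Per the study's methods and the submitters' processing notes, reads were trimmed and filtered, aligned in pairs to mm9 with TopHat2 2.0.13, and compared with Cuffdiff 2.2.1. The gene annotation is not given in the sources used here. The authors deposited 1 FPKM value per gene and group. How the 2 libraries were combined is not given in the sources used here. Beside it the table holds their log2 ratio, test statistic, p-value and q-value, which were not used. With no value per library no test could be made, so differences are described against all genes.

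Groups came from the genotype labels. Genes were compared where their 2 levels averaged 1 FPKM or more, with a pseudocount of 1, and calls were made at 1.5-fold. The pseudocount understates changes of low genes. Starts are 1 above those of the table, which counts from 0. Reference genome NCBIM37 is mm9. The rule named all 10 genes, the called genes of each list (with no call, the gene of largest absolute difference) and the nearest neighbours. Other genes within the range were named for contrast after their values were seen. The members and lists were chosen with earlier results of these data known, so they are not independent evidence. Python 3.11.15, numpy 2.4.6, pandas 2.3.3 and matplotlib 3.10.9 were used. Alternatives were 2 other pseudocounts, 2 other filters, TPM, median centring and 2-fold calls. A further gene of the myoblast marker list is not reported here.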

Additional observations from a re-analysis of the deposited data

How the results depend on the processing

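No paired analysis was possible because only 1 level per gene and group was given, so no single library could be left out either. The 5 genes called lower and the 0 called higher among the 10 stayed so with a pseudocount of 0.1, with none, without the filter on low values, at a mean of 5 FPKM or more (which left out Ano5), in TPM and after median centring, and none of the 10 changed direction. At 2-fold, 4 were called lower. A value was taken as moved when it crossed the 1.5-fold limit or shifted by over 1.5-fold, and a count when it changed by over 1.5 times. The median of the 10 genes moved from -0.68 to -0.43 when Tmem8c, Gm7325, Dysf, Cav3 or Trim72 was left out. The median of myomaker, myomixer and their relatives moved from -1.05 to -0.56 without the filter, since 2 genes below 1 FPKM then entered. In all, 367 values under an alternative stayed and 21 moved, the remaining moves being counts of called genes in lists, among them the anoctamins with 0 called lower, and 1 with a pseudocount of 0.1 or with none. Over all genes, 338 were called lower and 435 higher, against 207 and 182 at a mean of 5 FPKM or more and 142 and 243 at 2-fold. Median centring removed an all-gene median of -0.0044. Depth was unknown, so the counting error of the low genes Dysf and Ano5 could not be given.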
